A study of Mus musculus with 5 samples.

Results

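Type I interferon response genes are described here in single cells of mouse skin, as a list of 34 genes of which 33 were found by symbol among the 27998 genes of the count tables. The remaining gene, Mx2, is not analysed here. The list holds sensors of foreign nucleic acid, transcription factors, antiviral effectors and chemokines. No measured value entered the rule for its members, but the list was chosen with earlier results of these data known. The libraries come from C57BL/6 skin, with 2 from un-wounded and 3 from wounded skin. For wounded skin, mice were punched at 7 weeks of age with a 6-mm biopsy tool, and a 10-mm punch of the region was collected after 4 days. The labels give neither an age nor a way of collection for the un-wounded skin. Cells of both groups were dissociated, sorted for live cells and captured with 10x Genomics 3' v1 chemistry, which counts unique molecular identifiers (UMIs) from the 3' end of each transcript. The labels do not say that the libraries come from separate animals, so each p-value measures the spread between these libraries, which may be technical.

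Type I interferons, chiefly interferon alpha and beta, are secreted after pattern receptors sense viral, microbial or misplaced self nucleic acid. They bind a receptor made of Ifnar1 and Ifnar2 on nearly all nucleated cells, whose kinases Jak1 and Tyk2 pass the signal on. Stat2 and Irf9 are parts of the complex ISGF3, which then binds the interferon-stimulated response element (ISRE) in promoters of interferon-stimulated genes. In skin, plasmacytoid dendritic cells, macrophages and keratinocytes are known sources of interferon after injury. Many members also respond to interferon gamma or lambda, or to interferon regulatory factors alone, so a level of these genes is not a measure of type I interferon itself.

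The promoters of 5 members are shown first because they display the element that these genes share. The sequences are RefSeq's on GRCm38.p6 and run from 160 to 21 bases before the annotated start, 5' to 3' on the gene's strand. Capitals mark each match to the core of the ISRE, searched as GAAANNGAAA on both strands.
Isg15: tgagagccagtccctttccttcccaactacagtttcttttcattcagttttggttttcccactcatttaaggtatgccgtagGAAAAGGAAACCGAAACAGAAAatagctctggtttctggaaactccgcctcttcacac
Bst2: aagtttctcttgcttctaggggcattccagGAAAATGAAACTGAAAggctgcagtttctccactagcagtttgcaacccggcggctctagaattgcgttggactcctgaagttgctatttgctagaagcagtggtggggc
Rsad2: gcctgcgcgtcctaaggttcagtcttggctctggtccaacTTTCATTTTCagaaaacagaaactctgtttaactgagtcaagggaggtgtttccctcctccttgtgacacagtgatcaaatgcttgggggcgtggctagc
Ifit3: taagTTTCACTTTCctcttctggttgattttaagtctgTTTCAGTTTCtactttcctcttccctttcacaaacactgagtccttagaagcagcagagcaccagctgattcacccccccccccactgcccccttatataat
Ifit1: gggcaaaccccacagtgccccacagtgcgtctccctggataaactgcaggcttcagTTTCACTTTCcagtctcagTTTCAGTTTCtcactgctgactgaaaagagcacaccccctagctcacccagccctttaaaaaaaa
The Isg15 stretch lies at chr4:156200839-156200978 on the minus strand and holds 3 overlapping cores, which begin 78, 72 and 66 bases before the start. Bst2 (chr8:71537493-71537632, minus strand) holds 2 overlapping cores, at 130 and 124 bases before the start. Rsad2 (chr12:26456473-26456612, minus strand) holds 1 core at 120 bases. In Ifit3 (chr19:34583369-34583508, plus strand) cores begin at 156 and 122 bases, and in Ifit1 (chr19:34640729-34640868, plus strand) at 104 and 85 bases, all read on the opposite strand.

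RefSeq's table, which holds 250 bases before to 50 bases after each start, had promoters for 25 of the 33 members. Of their 29 promoters, 14 (48.3%) held at least 1 ISRE core, against 3.44% of all 32851 promoters in the table. These 14 promoters belong to 13 members, and 6 members held 2 or more cores in 1 promoter. The gamma-activated site, searched on both strands as TTCNNNGAA, was found in 6 member promoters (20.7%) and in 8.3% of all promoters. In 2 of the member promoters a match to the gamma-activated site overlapped an ISRE core. Each match is a description of the letters in this window. Not in the table were Dhx58, Zbp1, Usp18, Oas2, Mx1, Rtp4, Parp14 and Ifi27l2a. In the GENCODE vM21 annotation of GRCm38, Ifit2, Ifit3 and Ifit1 lie near each other on chromosome 19, and Oas2, Oas3 and Oas1a on chromosome 5. Ifit3 and Oas1a have near-identical neighbouring copies, Ifit3b and Oas1g, and how reads shared by such copies were counted is not given in the sources used here.

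The 5 libraries held 5372 and 5517 un-wounded and 7578, 4698 and 4152 wounded cell barcodes, and 25597 cells with a median of 6020 to 7938 UMIs were kept. Any 2 libraries shared 26 to 63 barcode sequences, between 0.626% and 1.17% of the smaller library. Levels are given as CPM, the gene's UMIs per 1000000 UMIs of the same library, or of the same cell class in that library. The wounded libraries held more blood-derived cells. The summed level of 4 white blood cell markers (Ptprc, Tyrobp, Fcer1g and Lyz2) was 151 and 346 CPM in un-wounded libraries and 821, 2282 and 3260 CPM in wounded libraries 1, 2 and 3. Keratinocytes were few in wounded library 2, where 26 cells were named basal keratinocytes. In whole libraries a higher level can come from more cells of a type or from more RNA per cell, which cannot be told apart there.

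Over whole libraries, 30 of the 33 members were higher in every wounded library than in every un-wounded library, while the same held for 23.4% of the 15494 genes tested. Stat2, Usp18 and Parp14 overlapped between the groups. By edgeR's quasi-likelihood test with Benjamini-Hochberg adjustment over all genes tested, 8 members rose at an adjusted p under 0.05, against 0.626% of all genes called higher. The 33 members had a median log2 fold change of 2.56 (wounded over un-wounded), and all genes one of -0.04. All 33 fitted changes were above 0. A gene with few UMIs enters the test only when enough libraries hold it, so a gene near 0 in un-wounded skin was tested because of its level in wounded skin. None of the 8 calls passed without either of the un-wounded libraries or without wounded library 3. There were 3 calls without wounded library 2 and 22 without wounded library 1. The fitted change stayed within 3.45 to 3.68 for Irf7, 3.41 to 4.15 for Rtp4 and 4.44 to 5.51 for Ifi44 over 12 alternatives, of which each kept its call in 8. DESeq2 called 23 members, all 8 included, and a fit without the filter on low counts called 18. The share of all genes called is not given for these alternatives, so their counts cannot be set against it.

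Among the sensors, Ifih1, which encodes the RNA sensor MDA5, stood at 8.28 and 9.52 CPM in the un-wounded and 14, 36 and 14.3 CPM in the wounded libraries (log2 fold change 1.3 ± 0.51 (SE), adjusted p = 0.179). Its highest library was wounded 2. Zbp1, a sensor of Z-form nucleic acid, had 6.98 and 20.05 CPM in the un-wounded and 33.8, 66.3 and 66.8 CPM in the wounded libraries (log2 fold change 2.11 ± 0.57 (SE), adjusted p = 0.101). The RNA sensors Ddx58 (RIG-I) and Dhx58 (LGP2) stayed under 20 CPM, at group means of 6.76 and 1.28 CPM un-wounded and 13.8 and 8.13 CPM wounded. None of the 4 sensors passed the test, and none overlapped between groups.

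Of the transcription factors, Irf7, which amplifies interferon gene transcription, had 4.76 and 5.63 CPM in the un-wounded and 51.5, 63.1 and 62.1 CPM in the wounded libraries and rose (log2 fold change 3.54 ± 0.29 (SE), adjusted p = 0.0371). Its wounded libraries lay close together and far above both un-wounded ones. Irf9, the DNA-binding part of ISGF3, was at 22.3 and 16.5 CPM in the un-wounded and 25.6, 25.7 and 24.8 CPM in the wounded libraries, a narrow gap (log2 fold change 0.399 ± 0.27 (SE), adjusted p = 0.374). Irf1, which also answers to interferon gamma, had 39 and 61.4 CPM in the un-wounded and 92.7, 86.3 and 73.9 CPM in the wounded libraries (log2 fold change 0.78 ± 0.26 (SE), adjusted p = 0.14). Stat2, at means of 8.62 CPM un-wounded and 12.7 CPM wounded, overlapped.

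Isg15, a ubiquitin-like protein joined to target proteins, had 16.1 and 19.4 CPM in the un-wounded and 139, 292 and 242 CPM in the wounded libraries and rose (log2 fold change 3.71 ± 0.46 (SE), adjusted p = 0.0422). Usp18, the protease that takes Isg15 off again and dampens the receptor, was at 17.9 and 18.3 CPM in the un-wounded and 27.4, 22.5 and 17.9 CPM in the wounded libraries, with overlapping groups (log2 fold change 0.33 ± 0.25 (SE), adjusted p = 0.427).

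The Ifit proteins bind foreign RNA and block its translation. Ifit3 had 1.97 and 4.72 CPM in the un-wounded and 30.8, 25.1 and 24.9 CPM in the wounded libraries and rose (log2 fold change 3.04 ± 0.42 (SE), adjusted p = 0.0493). Ifit1 was at 1.49 and 5.32 CPM in the un-wounded and 31.6, 88.5 and 33.1 CPM in the wounded libraries, with wounded 2 highest, and did not pass the test (log2 fold change 3.97 ± 0.7995 (SE), adjusted p = 0.0721). Ifit2 stayed low, at means of 1.63 and 6.92 CPM. The Oas enzymes make the oligoadenylates that switch on RNase L. Oas1a had 1.87 and 1.12 CPM in the un-wounded and 10.9, 13 and 10.6 CPM in the wounded libraries and rose (log2 fold change 2.95 ± 0.39 (SE), adjusted p = 0.045). Oasl2, a relative of these enzymes, had 7.61 and 7.3 CPM in the un-wounded and 27.8, 37.7 and 32.4 CPM in the wounded libraries and rose (log2 fold change 2.16 ± 0.29 (SE), adjusted p = 0.0478). Oasl1 went from near 0 to widely spread wounded values, with 0.0317 and 0.417 CPM in the un-wounded and 5.88, 53.9 and 21.6 CPM in the wounded libraries (log2 fold change 6.92 ± 1.42 (SE), adjusted p = 0.0727). Oas2 and Oas3 had means of 0.139 and 0.126 CPM un-wounded and 3.62 and 3.90 CPM wounded. Mx1, the gene of a GTPase, had means of 0.305 and 3.86 CPM, without overlap and without a call.

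Bst2 (tetherin), which holds budding virus at the cell surface, had 29.3 and 56.6 CPM in the un-wounded and 216, 271 and 249 CPM in the wounded libraries and just missed the threshold (log2 fold change 2.56 ± 0.37 (SE), adjusted p = 0.0513). Ifitm3, which blocks virus entry at membranes and is plentiful in resting skin, had 921 and 1310.4 CPM in the un-wounded and 2106, 2302 and 2492 CPM in the wounded libraries (log2 fold change 1.08 ± 0.299 (SE), adjusted p = 0.104). Its groups did not overlap, but the fold was smaller than for Bst2. Rsad2 (viperin), which makes a chain-terminating nucleotide, had 0.159 and 0.521 CPM in the un-wounded and 15, 100.2 and 32.3 CPM in the wounded libraries (log2 fold change 7.2 ± 1.2 (SE), adjusted p = 0.0591). Wounded library 2 was by far the highest. Ifi27l2a, a small interferon-induced protein, had 30.1 and 67 CPM in the un-wounded and 536, 803 and 765 CPM in the wounded libraries and rose (log2 fold change 3.91 ± 0.49 (SE), adjusted p = 0.0422). Rtp4, a chaperone of membrane receptors, had 2.63 and 4.77 CPM in the un-wounded and 47.7, 50.9 and 45.4 CPM in the wounded libraries and rose (log2 fold change 3.73 ± 0.34 (SE), adjusted p = 0.0422). In both genes every wounded library was far above both un-wounded ones. Ifi44 had 0.0952 and 0.13 CPM in the un-wounded and 3.55, 2.84 and 2.36 CPM in the wounded libraries and rose (log2 fold change 4.66 ± 0.47 (SE), adjusted p = 0.0422).

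Trim30a, a tripartite motif protein, was at 1.4 and 5.81 CPM in the un-wounded and 14.5, 45.5 and 27.5 CPM in the wounded libraries (log2 fold change 3.09 ± 0.79 (SE), adjusted p = 0.0938). Xaf1, a partner of the apoptosis inhibitor XIAP, was at 10.1 and 17.1 CPM in the un-wounded and 38.8, 41.9 and 39 CPM in the wounded libraries (log2 fold change 1.59 ± 0.29 (SE), adjusted p = 0.0659). Both were higher in every wounded library without passing the test. Parp14, an ADP-ribosyltransferase, was at 7.23 and 11.8 CPM in the un-wounded and 11.6, 30.8 and 21.5 CPM in the wounded libraries and overlapped (log2 fold change 1.22 ± 0.496 (SE), adjusted p = 0.189). Ifi35 differed little in size, with 34.2 and 33.1 CPM in the un-wounded and 49.8, 47.8 and 45.4 CPM in the wounded libraries (log2 fold change 0.52 ± 0.22 (SE), adjusted p = 0.196). Cxcl10, a ligand of the chemokine receptor Cxcr3, had 13.1 and 29.4 CPM in the un-wounded and 107, 226 and 199 CPM in the wounded libraries (log2 fold change 3.12 ± 0.54 (SE), adjusted p = 0.0632), again without overlap and without a call. The remaining members, Cmpk2, Ifi47 and Cxcl9, had means of 1.73 to 4.22 CPM un-wounded and 4.77 to 18.8 CPM wounded.

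**Figure D1:**
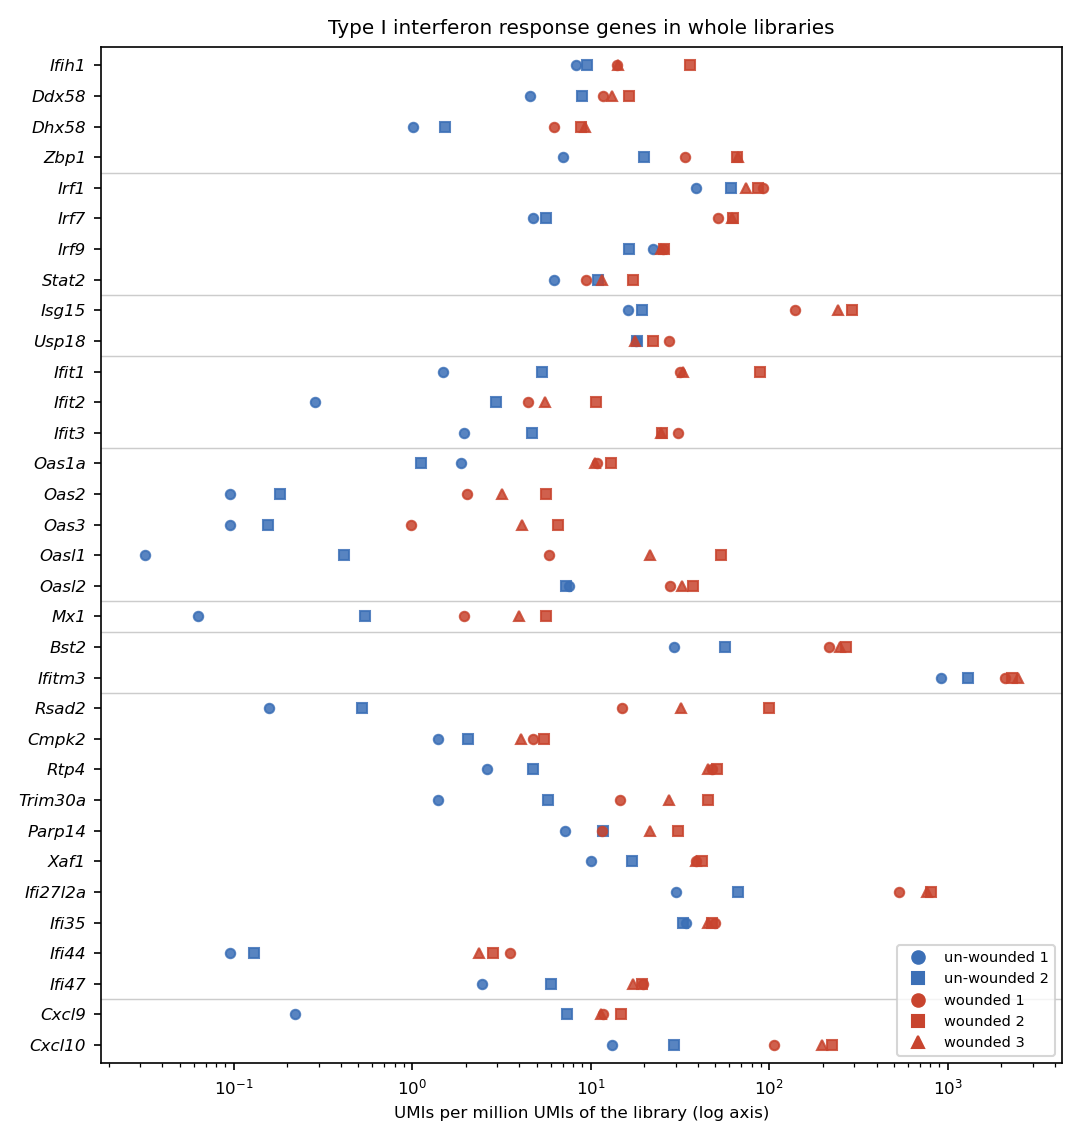
CPM of each of the 33 members in each library, summed over all kept cells, on a log axis and grouped by role, with 1 point per library (2 un-wounded, 3 wounded). For 30 members every wounded point lies above both un-wounded points, and Stat2, Usp18 and Parp14 overlap.

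The wounded libraries differed among themselves more for some members than for others. Wounded library 2 was the highest for 24 of the 33 members, wounded 1 for 6 and wounded 3 for 3. The highest wounded library was 9.16 times the lowest for Oasl1, 6.70 times for Rsad2 and 6.63 times for Oas3. For Irf9 this ratio was 1.04. Oasl1 and Rsad2 had large fitted changes in whole libraries and no call.

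Cells were then grouped into classes from lists of marker genes, with the members and the other interferon genes left out of the clustering. Classes with at least 15 cells in every library were tested, each on its own sums per library. The fibroblasts gave the most calls, with 16 of 33 members rising (5.59% of all genes tested were called higher). Dendritic cells followed with 8 of 30 tested members (2.22% of all genes). Pericytes or smooth muscle cells had 6 of 14 higher and 1 lower, while 8.07% of all genes tested there were called higher and 8.44% lower. Basal keratinocytes had 3 of 21 (1.99%), spinous keratinocytes 1 of 16 (0.887%), keratinocytes of unresolved layer 1 of 24 (0.545%) and hair follicle keratinocytes 1 of 8 (0.536%). In lymphocytes none of 19 and in sebocytes none of 5 passed edgeR's test, and no gene at all was called higher there (0.0% in each). Unadjusted p was under 0.05 for 13 of 19 members in lymphocytes, against 828 of all 6557 genes tested. In sebocytes it was so for 1 of 5 members, against 236 of 4856 genes. DESeq2 called 3 and 0 members. The count of tested members falls with the depth of a class, so these shares are not of equal lists. Within a class too, a gene near 0 in un-wounded cells was tested because of its wounded level and could hardly be called lower. Among the calls these were Ifi27l2a, Irf7, Ifit3 and Oasl2 in pericytes or smooth muscle cells, with 2 un-wounded UMIs each. In dendritic cells they were Ifit3 and Oasl2, with 1 each, and Rsad2, with none.

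**Figure D2:**
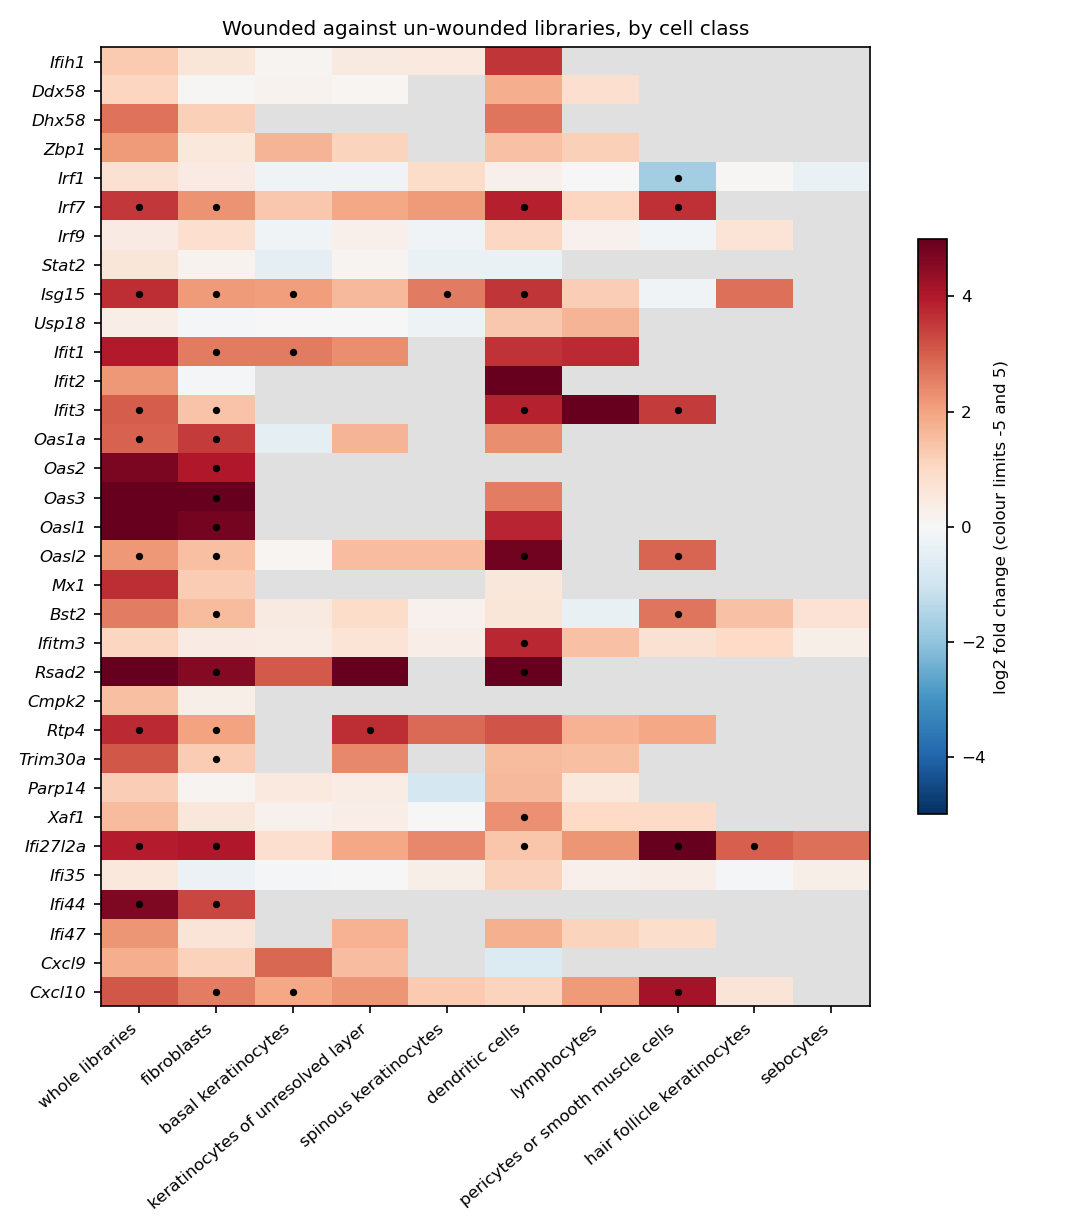
Fitted log2 fold change of each member in each tested class, wounded over un-wounded, with colour limits at -5 and 5, a dot where the adjusted p was under 0.05 and grey where the gene was not tested. The fibroblast column carries 16 dots, dendritic cells 8 and pericytes or smooth muscle cells 7, of which Irf1 is the only one below 0.

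The un-wounded libraries held 485 and 2071 fibroblasts and the wounded ones 2206, 1887 and 1393. Their 33 members had a median log2 fold change of 1.25 and all genes one of -0.01, and 30 members were above 0. In 25 members every wounded library was above both un-wounded ones, which held for 18.0% of all genes tested. The calls spanned the Oas and Ifit families, Isg15, Irf7 and Cxcl10. Without un-wounded library 2, which holds most of the un-wounded fibroblasts, the count fell from 16 to 7. It was 13 without un-wounded library 1, and 14 to 16 without any 1 of the wounded libraries.

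Irf7 in fibroblasts had 16.3 and 9.75 CPM in the un-wounded and 73.6, 45.2 and 45.7 CPM in the wounded libraries and rose (log2 fold change 2.25 ± 0.31 (SE), adjusted p = 0.00355). Irf9 was at 13.7 and 13.1 CPM un-wounded and 28, 20.01 and 20.03 CPM wounded and Irf1 at 86.6 and 108 CPM un-wounded and 123, 127 and 116 CPM wounded, neither of them called (adjusted p = 0.057 and adjusted p = 0.2998). The sensor Zbp1 was already plentiful without a wound, with 69.9 and 47.7 CPM in the un-wounded and 73, 79 and 83.2 CPM in the wounded libraries (log2 fold change 0.54 ± 0.23 (SE), adjusted p = 0.21). Isg15 had 43.7 and 32.5 CPM in the un-wounded and 152, 132 and 173 CPM in the wounded libraries and rose (log2 fold change 2.13 ± 0.25 (SE), adjusted p = 0.00237). Usp18 was at 34.7 and 29.3 CPM un-wounded and 39.3, 25.1 and 18.9 CPM wounded, overlapping (-0.11 ± 0.28 (adjusted p = 0.876)). The highest and the lowest Usp18 values were both from wounded libraries.

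Ifit1 in fibroblasts had 6.86 and 9.27 CPM in the un-wounded and 50.3, 55.4 and 38 CPM in the wounded libraries and rose (log2 fold change 2.59 ± 0.26 (SE), adjusted p = 0.00146). Ifit3 was at 18.4 and 11.3 CPM in the un-wounded and 50.9, 25.2 and 30.1 CPM in the wounded libraries and rose (log2 fold change 1.41 ± 0.34 (SE), adjusted p = 0.0378), although un-wounded library 1 came close to wounded library 2. The third gene of this cluster, Ifit2, had nearly equal means of 5.73 and 5.76 CPM. Oas1a rose from 1.29 and 0.761 CPM to 15, 7.01 and 6.48 CPM (log2 fold change 3.51 ± 0.53 (SE), adjusted p = 0.00529), and Oas2 from 0 and 0.277 CPM to 4.04, 4.18 and 2.78 CPM (log2 fold change 4.01 ± 0.61 (SE), adjusted p = 0.00546). Oas3 had no UMI in either un-wounded library and 0.69, 1.28 and 1.04 CPM in the wounded ones, at least 5.62-fold higher against a floor of 3 UMIs over the un-wounded group (adjusted p = 0.0317). Oasl1 had 3 un-wounded and 248 wounded UMIs, a ratio of levels of 27.2 with a 95% counting interval of 9.21 to 133.0 (adjusted p = 0.00828). Oasl2 had 17.1 and 12.8 CPM in the un-wounded and 44.5, 37.9 and 34.4 CPM in the wounded libraries and rose (log2 fold change 1.51 ± 0.22 (SE), adjusted p = 0.0049). All 5 members of the Oas group were thus called in fibroblasts. Of these, Oas2, Oas3 and Oasl1 were at or near 0 without a wound and entered the test through their wounded levels. Without the Cxcl13 and Cxcl5 clusters described below, Oas1a, Oas2 and Oas3 were not tested. Oasl1 and Oasl2 were then not called (adjusted p = 0.209 and adjusted p = 0.29).

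Bst2 in fibroblasts had 125 and 101 CPM in the un-wounded and 369, 288 and 289 CPM in the wounded libraries and rose (log2 fold change 1.58 ± 0.23 (SE), adjusted p = 0.00482). Ifitm3, high in every library, had 2406 and 2308 CPM in the un-wounded and 2843, 2857 and 3052 CPM in the wounded libraries (log2 fold change 0.41 ± 0.28 (SE), adjusted p = 0.446). Rsad2 rose from 0.857 and 0.415 CPM to 9.19, 17.3 and 7.87 CPM (log2 fold change 4.59 ± 0.58 (SE), adjusted p = 0.00263). Rtp4 had 18.9 and 9.34 CPM in the un-wounded and 61.9, 42.2 and 42.4 CPM in the wounded libraries and rose (log2 fold change 1.996 ± 0.32 (SE), adjusted p = 0.00701). Trim30a was at 12.9 and 11.1 CPM in the un-wounded and 24.3, 31.3 and 23.8 CPM in the wounded libraries and rose (log2 fold change 1.26 ± 0.24 (SE), adjusted p = 0.0149). Ifi27l2a had 20.1 and 86.5 CPM in the un-wounded and 931, 855 and 728 CPM in the wounded libraries and rose (log2 fold change 4.004 ± 0.57 (SE), adjusted p = 0.00418). The un-wounded libraries differed from each other too, with library 2 above library 1. Ifi44 rose from 0.429 and 0.277 CPM to 4.25, 2.49 and 2.26 CPM (log2 fold change 3.33 ± 0.6 (SE), adjusted p = 0.0124).

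Cxcl10 in fibroblasts had 37.3 and 48.2 CPM in the un-wounded and 165, 229.5 and 312 CPM in the wounded libraries and rose (log2 fold change 2.56 ± 0.36 (SE), adjusted p = 0.0038). Its neighbour Cxcl9, another Cxcr3 ligand, had 1.71 and 15.9 CPM un-wounded and 21.2, 23.9 and 21.2 CPM wounded (1.16 ± 0.52 (adjusted p = 0.24)). The un-wounded libraries differed far more for Cxcl9 than for Cxcl10, and 2 cells held 50.7% of all 284 Cxcl9 UMIs of un-wounded library 2. Xaf1 was at 41.6 and 33 CPM un-wounded and 56.3, 51 and 44.5 CPM wounded (0.55 ± 0.1998 (adjusted p = 0.142)), Ifi47, an interferon-inducible GTPase, at 19.7 and 12.9 CPM un-wounded and 23.8, 23.2 and 21.1 CPM wounded (0.63 ± 0.23 (adjusted p = 0.152)). Ifi35 overlapped, with 71.6 and 47.7 CPM un-wounded and 56.6, 39.5 and 39.1 CPM wounded (-0.29 ± 0.24 (adjusted p = 0.545)). The other members, Ifih1, Ddx58, Dhx58, Stat2, Mx1, Cmpk2 and Parp14, had means of 0.595 to 18.4 CPM un-wounded and 1.55 to 18.9 CPM wounded, and none was called.

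Which fibroblasts were present differed between the groups, although the members had no part in the clustering. A cluster led by Cxcl13 and Thbs4 held 7 and 40 un-wounded and 441, 295 and 216 wounded cells. Another, led by Cxcl5, Sfrp2 and Cthrc1, held 0 and 2 un-wounded and 355, 155 and 363 wounded cells. Ifi27l2a stood at 2233, 2643 and 1504 CPM in the wounded cells of the Cxcl13 cluster and at 1868 CPM in its cells of un-wounded library 2. In the Cxcl5 cluster it was at 1171, 1272 and 934 CPM in the wounded libraries. The Ifi27l2a level of the Cxcl13 cluster in un-wounded library 2 thus lay within its wounded range. In the 4 other fibroblast clusters the Ifi27l2a level was lower, and in each of them every wounded library was above both un-wounded ones for this gene. The cluster led by Cpz and Cldn10 went from 0.688 and 9.31 CPM to 40.1, 59.1 and 49.0 CPM. The one led by Coch and Dkk2 had 25.8 and 45.3 CPM un-wounded and 128, 139 and 163 CPM wounded. The Lbp and Dpep1 cluster had 112 and 126 CPM, then 306, 411 and 332 CPM. The Igfbp2 and Stc1 cluster had 6.33 and 5.65 CPM, then 36.0, 64.3 and 57.4 CPM. The summed level of the members other than Ifitm3, Bst2, Ifi27l2a and Irf1 overlapped in the Cpz, Coch and Lbp clusters. It was 478 and 374 CPM un-wounded and 462, 674 and 717 CPM wounded in the Cpz cluster. In the Coch cluster it was 351 and 572.5 CPM, then 680, 560 and 741 CPM. In the Lbp cluster it was 719 and 451.5 CPM, then 718, 635 and 557 CPM.

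Fibroblast sums without the Cxcl13 and Cxcl5 clusters, an alternative chosen after seeing the data, left 2 calls among 29 tested members, where 0.24% of all genes were called higher. Ifit1 then had 6.93 and 7.98 CPM un-wounded and 20.2, 27.9 and 20.2 CPM wounded, with a log2 fold change of 1.71 ± 0.26 (adjusted p = 0.0455). Ifi27l2a had 13 and 32.5 CPM un-wounded and 97.6, 128 and 143 CPM wounded, with a log2 fold change of 2.47 ± 0.38 (adjusted p = 0.0455). Isg15 was at 43.8 and 28 CPM un-wounded and 49.2, 68.3 and 95.8 CPM wounded, with 1.16 ± 0.33 (adjusted p = 0.205), and Irf7 at 15.2 and 9.12 CPM un-wounded and 27.6, 22.5 and 25.3 CPM wounded, with 1.27 ± 0.26 (adjusted p = 0.104). The median change of the members in these sums was 0.74. Cells of white blood cell type could add RNA to a fibroblast sum, and the 4 markers summed to 26.1 and 42.0 CPM in un-wounded and 56.6, 157 and 172 CPM in wounded fibroblasts, with none of the 4 at 0. Without cells holding 2 or more of these UMIs, 13 of 32 members were called, against 3.55% of all genes.

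**Figure D3:**
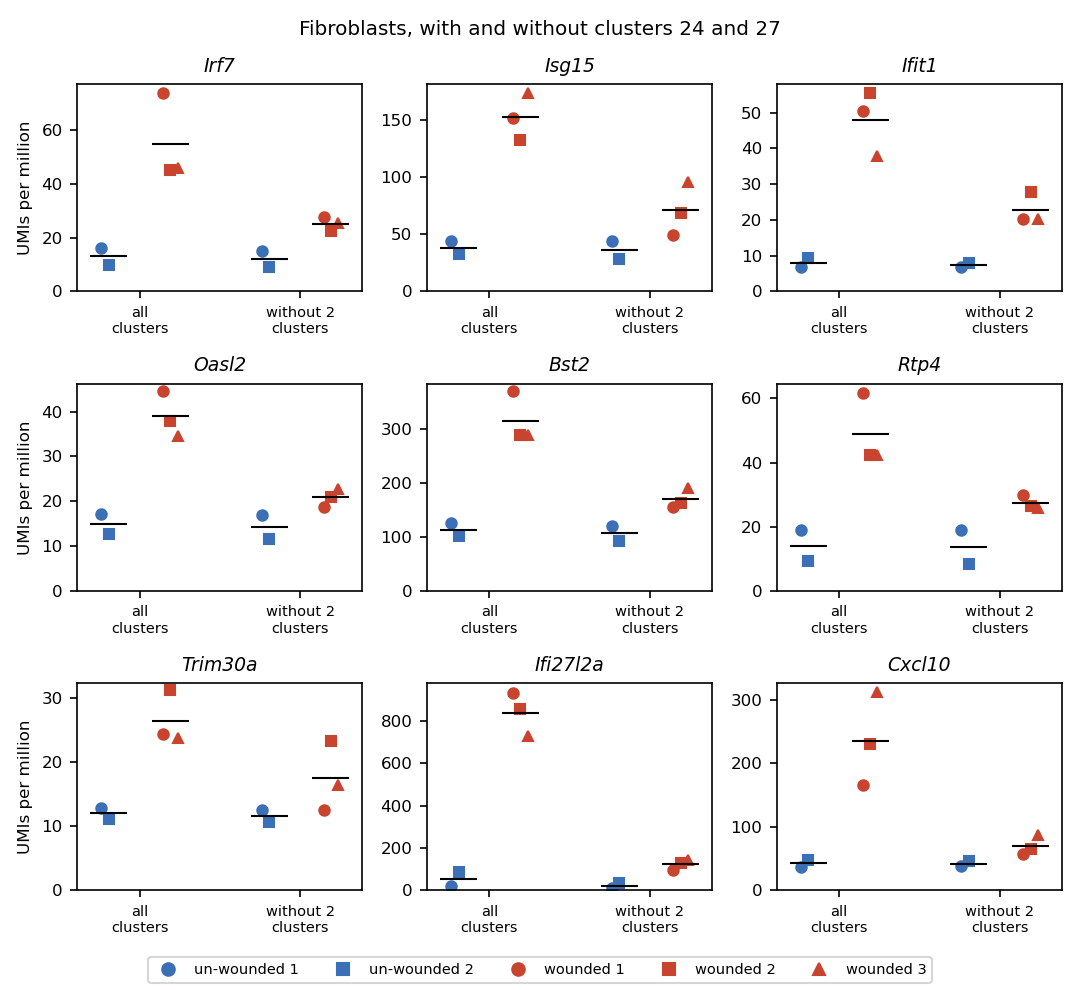
CPM of 9 members in fibroblast sums of each library, with all fibroblast clusters and without the Cxcl13 and Cxcl5 clusters. For Ifi27l2a the wounded libraries lie at 728 to 931 CPM with all clusters and at 97.6 to 143 CPM without them, above the un-wounded libraries in both.

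Basal keratinocytes divide at the base of the epidermis, and 2036 and 811 of them came from un-wounded and 1348, 26 and 109 from wounded skin. Of 21 tested members 8 were higher in every wounded library, 1 was lower in every one and 12 overlapped, and 5.42% of all genes were higher in every one. Their median log2 fold change was 0.37, against -0.03 for all genes. Isg15 had 7.44 and 4.17 CPM in the un-wounded and 21.7, 34 and 18.7 CPM in the wounded libraries and rose (log2 fold change 2.08 ± 0.36 (SE), adjusted p = 0.000271). Ifit1 was low but without overlap, with 0.548 and 1.39 CPM in the un-wounded and 4.58, 5.66 and 5.11 CPM in the wounded libraries, and rose (log2 fold change 2.61 ± 0.63 (SE), adjusted p = 0.0154). The basal sum of wounded library 2 held 176560 UMIs, so 1 UMI there is 5.66 CPM. Counts of members higher or lower in every wounded library rest partly on such small counts. Cxcl10 had 7.91 and 4.79 CPM in the un-wounded and 16.9, 11.3 and 31.5 CPM in the wounded libraries and rose (log2 fold change 1.94 ± 0.38 (SE), adjusted p = 0.00163). The Cxcl10 call was lost without wounded library 3 (log2 fold change 1.46), and that of Ifit1 without un-wounded library 1 (1.97) or wounded library 1 (2.76). Ifi27l2a was at 24.7 and 34 CPM in the un-wounded and 40.3, 62.3 and 45.1 CPM in the wounded libraries (log2 fold change 0.84 ± 0.298 (SE), adjusted p = 0.195).

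Ifitm3 in basal keratinocytes had 1134 and 1094 CPM un-wounded and 1242, 1303 and 1234 CPM wounded (0.37 ± 0.31 (adjusted p = 0.884)), with all libraries within a narrow range. Bst2 had 14.3 and 14.7 CPM un-wounded and 16.9, 45.3 and 11.1 CPM wounded (0.46 ± 0.35 (adjusted p = 0.853)) and Ifi35 30.5 and 22.7 CPM un-wounded and 25.6, 17 and 18.7 CPM wounded (-0.04 ± 0.31 (adjusted p = 0.995)), both overlapping. Irf9 had 24.5 and 15.9 CPM un-wounded and 17, 5.66 and 15.3 CPM wounded (-0.18 ± 0.34 (adjusted p = 0.978)). Irf1 was the member lower in every wounded library, with 26.1 and 29.6 CPM un-wounded and 20.3, 11.3 and 25.5 CPM wounded (-0.17 ± 0.31 (adjusted p = 0.978)). The other tested members were under 20 CPM and not called. RNA from fibroblasts in these sums can be read from Col1a1, whose basal level was 0.335% to 1.04% of the fibroblast level in the same library. For Isg15 that share was 10.8% to 25.8%, and for Ifitm3 40.4% to 47.4%. For Ifi27l2a it was 122% and 39.3% un-wounded and 4.33%, 7.29% and 6.20% wounded. The white blood cell markers summed to 20.4 and 26.1 CPM in un-wounded and 45.2, 130.3 and 102 CPM in wounded basal keratinocytes. Without cells holding 2 or more of these UMIs the same 3 of 19 tested members were called, against 200 of all 10684 genes called higher. Their log2 fold changes were 1.79 for Isg15, 2.38 for Ifit1 and 2.21 for Cxcl10.

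A model with library as a block tested whether the wound effect differed between fibroblasts and basal keratinocytes. Of 33 members 4 had a larger effect in fibroblasts, and 1.85% of all genes did. Ifi27l2a differed by 3.47 ± 0.38 (adjusted p = 2.8e-06) on the log2 scale. Oas1a differed by 4.002 ± 0.69 (adjusted p = 0.000636), with 2.43 and 1.24 CPM un-wounded and 1.56, 0 and 0 CPM wounded in basal keratinocytes. Oasl2 differed by 1.39 ± 0.34 (adjusted p = 0.0154) and Bst2 by 1.2 ± 0.35 (adjusted p = 0.0499). For Ifit1, called in both classes, the difference was 0.095 ± 0.62 (adjusted p = 0.991), not past the threshold. That of Isg15, also called in both, was 0.002 and did not pass. Its error is not given, because the way of deriving it fails this close to 0. A difference that does not pass does not show likeness. Without the Cxcl13 and Cxcl5 fibroblast clusters 1 member passed, Ifi27l2a, with a difference of 1.71 ± 0.31 (adjusted p = 0.0125). The others were then 1.75 ± 1.03 (adjusted p = 0.595) for Oas1a, 0.49 ± 0.35 (adjusted p = 0.68) for Oasl2, 0.36 ± 0.35 (adjusted p = 0.786) for Bst2 and -1.14 ± 0.35 (adjusted p = 0.158) for Isg15. The median difference of the members was 0.21 with all clusters and -0.18 without these, where 12 of 30 were above 0. The calls of Bst2 and Oasl2 were lost without wounded library 1, where 2 members remained. Bst2 was also lost without un-wounded library 2 or wounded library 3, and Oasl2 without un-wounded library 1.

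Keratinocytes of unresolved layer numbered 1280 and 865 without and 1168, 146 and 208 with a wound. Each of their 4 clusters scored close on 2 keratinocyte lists. These were the spinous and basal lists in the cluster led by Ovol1 and Zfp750. In the clusters led by Ube2c, by Sostdc1 and by Krt79, 1 of the 2 was the hair follicle list. Of 24 tested members 13 were higher in every wounded library and 1 lower (5.33% of all genes were higher). Their median change was 1.32 on the log2 scale, against -0.02 for all genes. Rtp4 rose, with 0.453 and 0.888 CPM in the un-wounded and 5.31, 13.9 and 6.66 CPM in the wounded libraries (log2 fold change 3.69 ± 0.62 (SE), adjusted p = 0.0278). Without un-wounded library 1 or 2, or wounded library 3, no member passed, and 5 passed without wounded library 1 and 3 without wounded library 2. Isg15 had 15.3 and 10.5 CPM un-wounded and 30.2, 32.5 and 37.8 CPM wounded (1.6 ± 0.31 (adjusted p = 0.0595)). Cxcl10 was at 19 and 36.4 CPM un-wounded and 65.2, 179 and 94.2 CPM wounded (2.2 ± 0.46 (adjusted p = 0.0818)), highest in wounded 2. Ifi27l2a was highest there too, with 40.9 and 47.8 CPM un-wounded and 70.03, 263 and 117 CPM wounded (1.93 ± 0.49 (adjusted p = 0.175)). Ifitm3 had 729 and 843 CPM un-wounded and 953, 1397 and 953 CPM wounded (0.69 ± 0.32 (adjusted p = 0.838)) and Bst2 13.9 and 17 CPM un-wounded and 19.2, 39.5 and 22.8 CPM wounded (0.93 ± 0.34 (adjusted p = 0.556)). Both were without overlap. Irf1 was lower in every wounded library, with 40.2 and 34.9 CPM un-wounded and 31.7, 31.4 and 23.1 CPM wounded (-0.19 ± 0.25 (adjusted p = 0.999)). Irf9 and Ifi35 overlapped, with 21.2 and 18.4 CPM un-wounded and 18.6, 20.9 and 22.1 CPM wounded for Irf9 and 30.6 and 21.3 CPM un-wounded and 26.1, 24.4 and 18.2 CPM wounded for Ifi35. White blood cell markers summed to 19.8 and 25.3 CPM un-wounded and 43.6, 117 and 129 CPM wounded. Without cells holding 2 or more of their UMIs no member passed, while the log2 fold change of Rtp4 was 3.78 (adjusted p = 0.0571) and the median of the members 1.28.

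Spinous keratinocytes, the layer that has left the cell cycle, numbered 713 and 562 without and 372, 35 and 66 with a wound. Isg15 was the member that rose, with 6.79 and 2.46 CPM in the un-wounded and 15.2, 18.9 and 40.3 CPM in the wounded libraries (log2 fold change 2.58 ± 0.52 (SE), adjusted p = 0.023). The call was lost without either un-wounded library, and 2 members passed without wounded library 1 or 2. Without wounded library 3, Isg15 itself was lost (log2 fold change 1.87). Ifi27l2a was at 5.47 and 14.2 CPM in the un-wounded and 23.8, 119.9 and 34.9 CPM in the wounded libraries (log2 fold change 2.41 ± 0.58 (SE), adjusted p = 0.0653). Of 16 tested members 6 were higher in every wounded library and 2 lower (5.53% of all genes were higher), and their median change was 0.42, against -0.02 for all genes. Irf9 was one of the lower ones, with 21.5 and 20.4 CPM un-wounded and 19.96, 3.15 and 18.5 CPM wounded (-0.16 ± 0.36 (adjusted p = 0.982)). The spinous sum of wounded library 2 held 316965 UMIs, so its 3.15 CPM of Irf9 is 1 UMI. Ifitm3 overlapped, with 184 and 248 CPM un-wounded and 259, 211 and 255 CPM wounded (0.34 ± 0.28 (adjusted p = 0.912)), and so did Ifi35, with 30.4 and 21.6 CPM un-wounded and 32.5, 18.9 and 27.2 CPM wounded (0.28 ± 0.29 (adjusted p = 0.949)). White blood cell markers summed to 28.7 and 31.1 CPM un-wounded and 49.8, 142 and 108 CPM wounded. Without cells holding 2 or more of these UMIs 2 of 12 members were called, against 80 of all 9583 genes called higher. Isg15 was among them, with a log2 fold change of 2.39 (adjusted p = 0.0263).

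Hair follicle keratinocytes, 133 and 365 un-wounded and 114, 86 and 41 wounded cells, had 8 tested members. Their median change was 0.83 on the log2 scale, against 0.00 for all genes, and 3 were higher in every wounded library (8.31% of all genes). Ifi27l2a rose, with 5.08 and 14.5 CPM in the un-wounded and 59.1, 129 and 69.8 CPM in the wounded libraries (log2 fold change 3.01 ± 0.48 (SE), adjusted p = 0.0237). This call was lost without un-wounded library 2 (log2 fold change 4.22), and 2 members passed without wounded library 3. Isg15 was at 3.39 and 3.63 CPM un-wounded and 25.3, 34.3 and 8.46 CPM wounded (2.77 ± 0.64 (adjusted p = 0.106)) and Ifitm3 at 398 and 455 CPM un-wounded and 763, 729 and 796 CPM wounded (0.99 ± 0.27 (adjusted p = 0.175)), without overlap. Cxcl10 had 5.08 and 30.6 CPM un-wounded and 18.6, 22.3 and 55 CPM wounded, Bst2 8.47 and 13.3 CPM un-wounded and 11.8, 42.9 and 36 CPM wounded, Irf1 47.4 and 39.1 CPM un-wounded and 28.7, 42.9 and 48.7 CPM wounded, Irf9 16.9 and 15.7 CPM un-wounded and 25.3, 27.4 and 16.9 CPM wounded and Ifi35 35.6 and 20.1 CPM un-wounded and 23.6, 18.9 and 23.3 CPM wounded, all 5 overlapping. White blood cell markers summed to 35.6 and 21.0 CPM un-wounded and 64.2, 127 and 116 CPM wounded in this class.

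Sebocytes, the lipid-filled cells of the oil gland, numbered 82 and 40 un-wounded and 155, 17 and 22 wounded, and their 5 tested members had a median change of 0.29, against -0.01 for all genes. Of them 2 were higher in every wounded library (8.13% of all genes). Ifi27l2a was at 4.91 and 4.19 CPM un-wounded and 24.9, 30.7 and 44.5 CPM wounded (2.75 ± 0.63 (adjusted p = 0.26)) and Ifitm3 at 645 and 543 CPM un-wounded and 758, 658 and 703 CPM wounded (0.29 ± 0.24 (adjusted p = 0.9995)). Isg15 was too low to be tested, at 1.64 and 8.39 CPM un-wounded and 12.9, 67.6 and 9.54 CPM wounded. Bst2 had 29.4 and 8.39 CPM un-wounded and 30.9, 43 and 28.6 CPM wounded, Irf1 37.6 and 23.1 CPM un-wounded and 23.1, 18.4 and 28.6 CPM wounded and Ifi35 27.8 and 48.2 CPM un-wounded and 41.1, 49.2 and 50.9 CPM wounded, all overlapping.

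Dendritic cells, which present antigen and carry it to lymph nodes, numbered 20 and 108 without and 246, 897 and 424 with a wound. Nearly all un-wounded cells lay in the cluster led by Cd209a. The cluster led by Ccl22 and Ccr7 held 0 and 2 un-wounded and 41, 168 and 83 wounded cells. Of 30 tested members 23 were higher in every wounded library and 1 lower, and 19.3% of all genes were higher. The median log2 fold change of the members was 2.05, or 1.79 with 2 members that had no un-wounded UMI at their lower bounds, and that of all genes was 0.04. Of the 8 calls, none held without un-wounded library 2, which has most of the un-wounded cells. The counts were 5 without un-wounded library 1, 14 without wounded 1, 5 without wounded 2 and 3 without wounded 3.

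Ifitm3 had 245 and 141 CPM in the un-wounded and 1781, 2538 and 2428 CPM in the wounded libraries in dendritic cells and rose (log2 fold change 3.76 ± 0.39 (SE), adjusted p = 0.00146). Irf7 had 8.46 and 5.24 CPM in the un-wounded and 84.9, 90.2 and 74.6 CPM in the wounded libraries and rose (log2 fold change 3.9 ± 0.42 (SE), adjusted p = 0.00146). Isg15 was at 33.8 and 27.5 CPM in the un-wounded and 255, 437 and 295 CPM in the wounded libraries and rose (log2 fold change 3.59 ± 0.41 (SE), adjusted p = 0.00192). In these 3 genes each wounded library was several times above both un-wounded ones. Xaf1 had 8.46 and 7.86 CPM in the un-wounded and 43.8, 33.9 and 35.6 CPM in the wounded libraries and rose (log2 fold change 2.29 ± 0.43 (SE), adjusted p = 0.0217). Ifi27l2a was already plentiful in un-wounded dendritic cells, with 296 and 305 CPM in the un-wounded and 724, 785 and 704 CPM in the wounded libraries, and rose (log2 fold change 1.4 ± 0.27 (SE), adjusted p = 0.0227). Rsad2 had no UMI in un-wounded dendritic cells and 25.2, 58.7 and 27.7 CPM in wounded ones, at least 10.9-fold higher against a floor of 3 UMIs over the un-wounded group (adjusted p = 0.0236). Ifit3 had 1 un-wounded and 211 wounded UMIs, a ratio of 14.3 with a 95% counting interval of 2.55 to 569.0 (adjusted p = 0.0354). Oasl2 had 1 and 447 UMIs, a ratio of 30.4 with an interval of 5.42 to 1200.0 (adjusted p = 0.0135). These intervals cover counting error only. Per library, Ifit3 had 0 and 1.31 CPM un-wounded and 14.8, 15.9 and 17.6 CPM wounded and Oasl2 0 and 1.31 CPM un-wounded and 26.3, 40.5 and 27.9 CPM wounded.

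In dendritic cells several other members were higher in every wounded library without a call. Rtp4 had 16.9 and 1.31 CPM un-wounded and 39.4, 33.9 and 21.9 CPM wounded (3.14 ± 0.74 (adjusted p = 0.0502)), Oasl1 0 and 3.93 CPM un-wounded and 22.5, 75.6 and 33.5 CPM wounded (3.8 ± 0.95 (adjusted p = 0.0623)) and Ifi35 42.3 and 38 CPM un-wounded and 105, 73 and 71.3 CPM wounded (1.14 ± 0.299 (adjusted p = 0.0727)). Ifit1 was at 0 and 3.93 CPM un-wounded and 32.3, 66.9 and 17.8 CPM wounded (3.6 ± 0.96 (adjusted p = 0.0789)). Trim30a had 8.46 and 24.9 CPM un-wounded and 50.4, 79.3 and 52 CPM wounded (1.57 ± 0.44 (adjusted p = 0.0869)) and Oas1a 0 and 5.24 CPM un-wounded and 28.5, 22.6 and 14.4 CPM wounded (2.31 ± 0.65 (adjusted p = 0.0921)). Wounded library 2 was the highest of all for Oasl1, Ifit1 and Trim30a. The sensor Ifih1 had 0 and 2.62 CPM un-wounded and 21.4, 43.3 and 12.3 CPM wounded (3.57 ± 1.03 (adjusted p = 0.0999)). Usp18 had 16.9 and 10.5 CPM un-wounded and 35, 23.9 and 26.7 CPM wounded (1.33 ± 0.44 (adjusted p = 0.144)). Irf9 had 16.9 and 22.3 CPM un-wounded and 43.8, 38.7 and 42.4 CPM wounded (1.04 ± 0.35 (adjusted p = 0.153)), Bst2 195 and 244 CPM un-wounded and 290.2, 357 and 301 CPM wounded (0.601 ± 0.28 (adjusted p = 0.316)) and Cxcl10 50.8 and 44.5 CPM un-wounded and 65.2, 142 and 74.1 CPM wounded (1.12 ± 0.44 (adjusted p = 0.215)). Stat2 was lower in every wounded library, with 25.4 and 23.6 CPM un-wounded and 17, 22.2 and 14.2 CPM wounded (-0.34 ± 0.41 (adjusted p = 0.775)). Zbp1 and Irf1 overlapped, with 59.2 and 9.17 CPM un-wounded and 38.3, 56.2 and 49.6 CPM wounded for Zbp1 and 16.9 and 39.3 CPM un-wounded and 29, 48.3 and 37.6 CPM wounded for Irf1. Ifit2 had no un-wounded UMI and was at least 2.92-fold higher in wounded cells, without a call. The dendritic sums held 406 and 1129 CPM of fibroblast markers in un-wounded and 425, 620 and 260 CPM in wounded libraries, which overlap.

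Macrophages or monocytes could not be tested, since the un-wounded libraries held 4 and 32 of them against 290, 415 and 946 in the wounded ones. Their member levels were high where cells were present. Isg15 was at 53.5 and 186 CPM in the un-wounded and 674, 1213 and 684 CPM in the wounded libraries. Rsad2 had 0 and 53.1 CPM in the un-wounded and 219.9, 881 and 152 CPM in the wounded libraries, and Oasl1 0 and 46.4 CPM un-wounded and 95.4, 369.5 and 105 CPM wounded. Wounded library 2 stood above the other wounded libraries for these 3 genes. Irf7 had 0 and 126 CPM un-wounded and 259, 188 and 189 CPM wounded, and Ifit1 214 and 325 CPM un-wounded and 129.6, 506 and 73.7 CPM wounded. Ifi27l2a was high in both groups, with 1071 and 1937 CPM un-wounded and 2259.7, 1575 and 2006 CPM wounded. Cxcl10 had 1178 and 119 CPM un-wounded and 179.9, 754 and 211 CPM wounded, its highest value coming from the 4 cells of un-wounded library 1.

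Lymphocytes numbered 130 and 193 un-wounded and 103, 497 and 239 wounded cells, and different clusters held them. The cluster led by Cd3g, Cd3e and Cd7 had 99 and 35 un-wounded and 31, 9 and 19 wounded cells. The one led by Gzmc, Gzma and Xcl1 had 31 and 158 un-wounded and 72, 488 and 220 wounded cells. Of 19 tested members 14 were higher in every wounded library (11.2% of all genes), with a median change of 1.20, against -0.01 for all genes. Ifi27l2a came nearest to a call, with 158 and 175 CPM in the un-wounded and 798, 693 and 562 CPM in the wounded libraries (log2 fold change 2.19 ± 0.302 (SE), adjusted p = 0.065). Isg15 had 78.8 and 45.6 CPM un-wounded and 111, 123 and 128 CPM wounded (1.23 ± 0.31 (adjusted p = 0.223)), Ifitm3 111 and 82.8 CPM un-wounded and 358, 197 and 171 CPM wounded (1.47 ± 0.32 (adjusted p = 0.178)) and Zbp1 60.9 and 30.4 CPM un-wounded and 87.5, 84 and 86.3 CPM wounded (1.2 ± 0.32 (adjusted p = 0.239)). In each of these 4 genes all wounded libraries were above the un-wounded ones. Rtp4 had 21.5 and 9.66 CPM un-wounded and 38.4, 48.1 and 34.7 CPM wounded (1.74 ± 0.44 (adjusted p = 0.223)), Irf7 21.5 and 22.1 CPM un-wounded and 51.2, 44 and 32.3 CPM wounded (1.09 ± 0.35 (adjusted p = 0.279)) and Xaf1 17.9 and 17.9 CPM un-wounded and 34.1, 33.6 and 29 CPM wounded (1.01 ± 0.35 (adjusted p = 0.312)). Ifit1 was at 0 and 2.76 CPM un-wounded and 14.9, 35.9 and 18.5 CPM wounded (3.74 ± 0.91 (adjusted p = 0.205)) and Trim30a at 7.16 and 20.7 CPM un-wounded and 32, 58.6 and 27.4 CPM wounded (1.51 ± 0.59 (adjusted p = 0.353)). Ifit3, with no un-wounded UMI, was at least 6.68-fold higher, without a call.

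Cxcl10 in lymphocytes had 43 and 9.66 CPM un-wounded and 72.6, 68.5 and 106 CPM wounded (2.11 ± 0.56 (adjusted p = 0.236)) and Ifi47 25.1 and 27.6 CPM un-wounded and 70.4, 45.8 and 42.7 CPM wounded (1.1 ± 0.33 (adjusted p = 0.262)). Bst2 overlapped, with 498 and 122 CPM un-wounded and 258, 172 and 170.1 CPM wounded, the highest value being from un-wounded library 1. Irf1 had 53.7 and 51.1 CPM un-wounded and 55.5, 46.8 and 41.9 CPM wounded, Irf9 35.8 and 24.9 CPM un-wounded and 34.1, 30.4 and 25 CPM wounded, Ifi35 57.3 and 45.6 CPM un-wounded and 55.5, 46.3 and 58.9 CPM wounded and Parp14 17.9 and 27.6 CPM un-wounded and 14.9, 29.1 and 41.9 CPM wounded, and each of them overlapped. In the model of lymphocytes against fibroblasts no member of 30 passed edgeR's test (0.123% of all genes had a larger effect in lymphocytes). An unadjusted p under 0.05 was reached by 5 of the 30 members and by 1295 of all 11340 genes tested. DESeq2 called 1 member. In lymphocytes 2 members were called without wounded library 1. In the model against fibroblasts 3 were called without wounded library 1 and 2 without un-wounded library 2.

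Pericytes or smooth muscle cells, the contractile cells of vessel walls, numbered 49 and 28 without and 594, 26 and 88 with a wound. Most un-wounded cells lay in the cluster led by Myh11 (43 and 25, against 158, 14 and 16 wounded cells), and most cells of wounded libraries 1 and 3 in that led by Rgs5 (6 and 3 un-wounded cells, against 436, 12 and 72). Of 14 tested members 8 were higher in every wounded library and 1 lower, while 28.0% of all genes were higher, and their median change was 1.46, against 0.04. Bst2 had 54.3 and 57.3 CPM in the un-wounded and 423, 337 and 318 CPM in the wounded libraries and rose (log2 fold change 2.68 ± 0.28 (SE), adjusted p = 0.00173). Cxcl10 had 32.6 and 0 CPM in the un-wounded and 232, 514 and 213 CPM in the wounded libraries and rose (log2 fold change 4.15 ± 0.81 (SE), adjusted p = 0.0117). Ifi27l2a had 2 un-wounded and 6355 wounded UMIs, a ratio of levels of 148.0 with a 95% counting interval of 40.8 to 1220.0 (adjusted p = 0.00151). Its wounded libraries were at 900.1, 635 and 761 CPM. Irf7 had 2 and 707 UMIs, a ratio of 16.4 (4.53 to 136.0, adjusted p = 0.0202), and 108, 53.2 and 53 CPM in the wounded libraries. Ifit3 had 2 and 610 UMIs, a ratio of 14.2 (3.91 to 117.0, adjusted p = 0.0238), and 92.5, 67.4 and 44.5 CPM. Oasl2 had 2 and 362 UMIs, a ratio of 8.41 (2.31 to 69.7, adjusted p = 0.0152), and 52.1, 46.1 and 37.6 CPM.

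Irf1 moved the other way in pericytes or smooth muscle cells, with 1141 and 560.2 CPM in the un-wounded and 333, 291 and 163 CPM in the wounded libraries, and fell (log2 fold change -1.72 ± 0.37 (SE), adjusted p = 0.0157). It was highest in un-wounded library 1, and without that library the log2 fold change was -0.995 and not called. Ifit3 lost its call without un-wounded library 1, Irf7 without un-wounded library 2 and Oasl2 without either, and the count of higher members was then 4 in both cases. Isg15 overlapped, with 315 and 363 CPM un-wounded and 379, 266 and 267 CPM wounded (-0.16 ± 0.24 (adjusted p = 0.68)), the un-wounded values lying inside the wounded range. Ifitm3 was at 1944 and 2145 CPM un-wounded and 4466, 2625 and 3507 CPM wounded (0.77 ± 0.31 (adjusted p = 0.121)) and Rtp4 at 27.2 and 12.7 CPM un-wounded and 124, 53.2 and 49.9 CPM wounded (1.95 ± 0.65 (adjusted p = 0.0743)), both without overlap. Xaf1 had 21.7 and 38.2 CPM un-wounded and 90.8, 24.8 and 42.2 CPM wounded, Ifi35 54.3 and 57.3 CPM un-wounded and 93.2, 39 and 66.8 CPM wounded, Ifi47 27.2 and 25.5 CPM un-wounded and 74.1, 10.6 and 42.2 CPM wounded and Irf9 43.5 and 19.1 CPM un-wounded and 40.6, 24.8 and 18.4 CPM wounded, all 4 overlapping. Usp18, Ifit1, Rsad2 and Parp14 were not tested, with 0 and 0 CPM un-wounded and 35.1, 28.4 and 13.8 CPM wounded for Usp18, 5.43 and 0 CPM un-wounded and 64.1, 28.4 and 27.6 CPM wounded for Ifit1, 0 and 0 CPM un-wounded and 23.6, 85.1 and 12.3 CPM wounded for Rsad2 and 16.3 and 31.8 CPM un-wounded and 21.7, 28.4 and 18.4 CPM wounded for Parp14. White blood cell markers summed to 0 and 25.5 CPM un-wounded, with 4 and 1 of the 4 at 0, and to 51.7, 177 and 161 CPM wounded. Fibroblast markers summed to 456 and 1038 CPM un-wounded and 2601, 3970 and 3995 CPM wounded. Without cells holding 2 or more white blood cell UMIs, 4 of 8 tested members were higher and 1 lower. Of all 2848 genes then tested, 176 were called higher and 144 lower. The log2 fold changes were 2.59 for Bst2, 3.26 for Cxcl10 and -1.74 for Irf1. Ifi27l2a and Irf7 were called too, while Ifit3 and Oasl2 were not tested. The part of fibroblast RNA in these results was not tested.

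Endothelial cells were too few to be tested (19 and 12 un-wounded, 95, 31 and 94 wounded cells) and held many members without a wound. Ifitm3 had 5927 and 4756 CPM un-wounded and 4853, 4756 and 4744 CPM wounded. Isg15 was at 396 and 61.8 CPM un-wounded and 241, 269.9 and 207 CPM wounded and Rtp4 at 132 and 77.2 CPM un-wounded and 165, 108 and 101 CPM wounded. For these 3 genes the groups overlapped. Bst2 had 528 and 494 CPM un-wounded and 581, 933 and 587 CPM wounded, without overlap. Irf1 was lower in every wounded library, with 381 and 154 CPM un-wounded and 87.5, 103 and 58.1 CPM wounded.

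The cell classes that held the UMIs of a member differed between genes. In the wounded libraries macrophages or monocytes held 37.1%, 68.0% and 69.8% of Rsad2 UMIs and 40.9%, 53.0% and 72.0% of Oasl1 UMIs. They held 12.2%, 32.1% and 41.9% of Isg15 UMIs. Fibroblasts held 60.2%, 50.5% and 41.3% of Ifi27l2a UMIs and 53.5%, 48.2% and 68.2% of Cxcl10 UMIs. Dendritic cells held 33.5% of Isg15 UMIs in wounded library 2. In wounded library 1, pericytes or smooth muscle cells held 28.8% of them. Rsad2 and Oasl1 thus had their largest source in macrophages or monocytes in each wounded library, and Cxcl10 in fibroblasts.

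The difference in summed CPM was split arithmetically for each of the 6 pairs of a wounded and an un-wounded library, into a part from the share of UMIs that each class held and a part from the level within classes. All members together differed by 2923 CPM on average, of which 1590.0 CPM came from shares and 1332 CPM from levels within classes (45.6%, with 33.8% to 65.7% over the pairs). Most of this within-class part came from 2 abundant genes, Ifitm3 with 533 CPM and Ifi27l2a with 338 CPM. The 29 canonical members, here all but Ifitm3, Bst2, Ifi27l2a and Irf1, differed by 849 CPM, of which 385 CPM (45.3%) came from within classes. Fibroblasts made the largest within-class part over all members, 691 CPM, followed by dendritic cells with 251 CPM, macrophages or monocytes with 129 CPM and pericytes or smooth muscle cells with 94.7 CPM. From shares, fibroblasts gave 804 CPM, macrophages or monocytes 561 CPM, dendritic cells 323 CPM and pericytes or smooth muscle cells 239 CPM. Basal keratinocytes gave -314 CPM, as their share of UMIs was smaller in wounded libraries. The fibroblast part from shares ranged from -128 to 1656 CPM over the pairs. The within-class parts of fibroblasts, dendritic cells and pericytes or smooth muscle cells include the different clusters described above. That of macrophages or monocytes rests on 4 and 32 un-wounded cells. A class missing from an un-wounded library was given its wounded level there, so its whole difference counts as shares. Between members, the within-class part was 61.6% for Ifi44, 55.0% for Irf7, 51.8% for Ifi27l2a and 50.6% for Isg15. For Irf1 it was -36.9% (-112.0% to 10.7% over the pairs), of which pericytes or smooth muscle cells gave -15.3 CPM and fibroblasts 7.08 CPM. For Ifi35 it was -15.1% (-90.3% to 61.5%). In both genes the within-class part was above 0 in 2 of the 6 pairs. Stat2 and Usp18, which differed by less, had negative mean parts too, of -1.71% and -63.7%. This split is a description with no test.

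**Figure D4:**
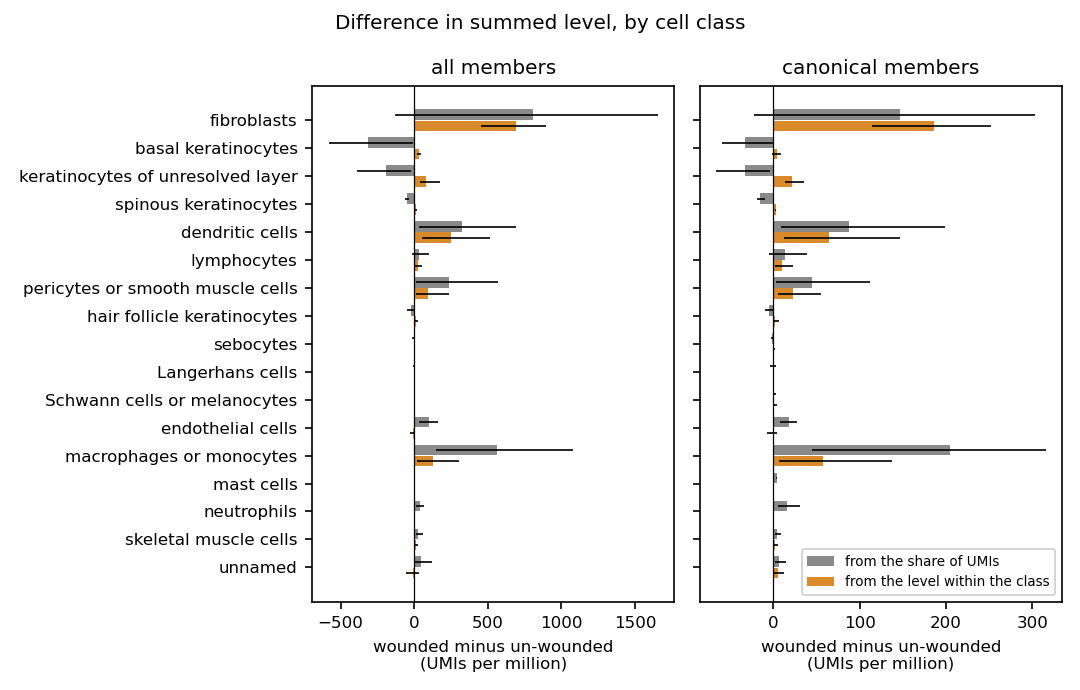
Difference in summed CPM between wounded and un-wounded libraries by cell class, split into a part from shares of UMIs (grey) and a part from levels within the class (orange), for all members and for canonical members, with bars for the mean and lines for the range over 6 pairs of libraries. Fibroblasts carry the largest within-class bar, 691 CPM, and basal keratinocytes a negative share bar of -314 CPM.

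Shares of cells with UMIs of at least 2 canonical members were compared after thinning each cell to 1500 UMIs, which left out 21 shallower cells of un-wounded library 1. Over whole libraries 3.29% and 6.06% of un-wounded and 17.1%, 29.0% and 25.1% of wounded cells passed (20.8%, 33.8%, 47.7%, 68.1% and 67.9% without thinning). The exact two-sided permutation test gave p = 0.1, the smallest value that 10 assignments of libraries allow, and 0.2 after adjustment over the comparisons. In fibroblasts the shares were 13.6% and 11.1% un-wounded and 25.1%, 23.6% and 21.0% wounded (exact p = 0.1). Dendritic cells had 10.5% and 3.70%, then 26.0%, 34.6% and 22.6%, and lymphocytes 11.4% and 6.74%, then 19.4%, 22.9% and 20.1% (exact p = 0.1 in each). All wounded libraries lay above the un-wounded ones in these 3 classes. The difference of group means was 10.9 percentage points in fibroblasts and 4.07 without the Cxcl13 and Cxcl5 clusters. In lymphocytes it was 11.8 points, and 2.07 (exact p = 0.8) in the cluster led by Gzmc, Gzma and Xcl1 alone. Both of these alternatives were chosen after seeing the data.

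In basal keratinocytes the shares were 1.82% and 1.36% un-wounded and 2.52%, 0% and 0.917% wounded (exact p = 0.7). By the limit of 3 counts, the 0 of 26 basal cells of wounded library 2 allows a share of up to 11.5%. Spinous keratinocytes had 0.701% and 1.42%, then 2.96%, 2.86% and 1.52%, and keratinocytes of unresolved layer 1.72% and 1.503%, then 3.34%, 5.48% and 5.29%, without overlap (exact p = 0.2 in each). Pericytes or smooth muscle cells had 12.5% and 14.3%, then 39.9%, 15.4% and 25%, without overlap (exact p = 0.2), wounded library 2 being close to the un-wounded ones. Hair follicle keratinocytes had 0% and 0.274%, then 5.26%, 3.49% and 4.88%, without overlap (exact p = 0.1). By the same limit, 0 of 133 cells allows a share of up to 2.26%. Of the untested classes, macrophages or monocytes had 25% and 46.9%, then 52.8%, 66.7% and 46.6%, and endothelial cells 42.1% and 75.0%, then 46.3%, 51.6% and 43.6%. Neutrophils, present in wounded libraries alone, had 44.2%, 43.5% and 48.9%. Their sums also held 3312, 11562 and 25705 CPM of fibroblast markers and 10519, 988 and 245 CPM of keratinocyte markers. The part of such RNA in the neutrophil shares was not tested. No class is known to lack these genes, so no background share could be taken from one.

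**Figure D5:**
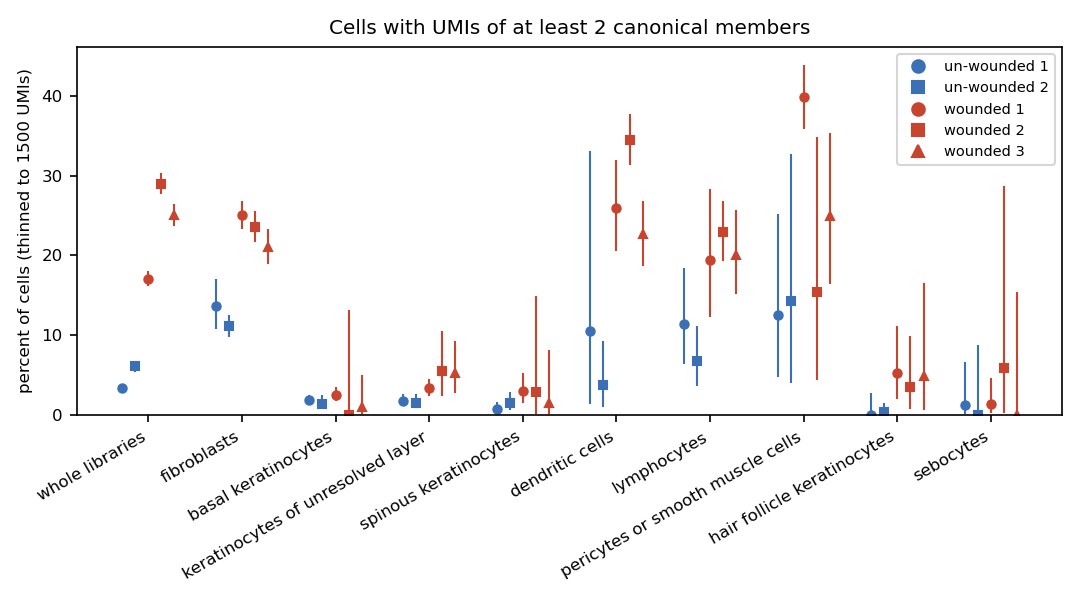
Percent of cells with UMIs of at least 2 canonical members after thinning to 1500 UMIs, by class and library, with exact (Clopper-Pearson) 95% intervals that cover counting error only. Every wounded library lies above both un-wounded ones except in basal keratinocytes, at 0% to 2.52% in all 5 libraries, and in sebocytes.

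The rest of the pathway was read from fixed lists of ligands, receptors, signalling proteins, sensors, other interferon-stimulated genes, interferon gamma-responsive genes and negative regulators. Of 10 listed ligands 2 could be tested in whole libraries and neither was called. Ifnb1, the gene of interferon beta, had 0 and 0.104 CPM in the un-wounded and 2.57, 34 and 3.14 CPM in the wounded libraries (log2 fold change 7.86 ± 1.96 (SE), adjusted p = 0.0914). Wounded library 2 stood far above the others, and 757 of its 1063 Ifnb1 UMIs were in 104 macrophages or monocytes, 186 in 49 dendritic cells and 96 in 29 fibroblasts. In wounded libraries 1 and 3, 114 of 140 and 110 of 125 UMIs were in macrophages or monocytes. Ifng, the gene of interferon gamma, had 0.0635 and 2.84 CPM in the un-wounded and 1.84, 9.36 and 4.48 CPM in the wounded libraries. In the wounded libraries lymphocytes held 84 of 100, 274 of 293 and 162 of 178 Ifng UMIs. Ifna1 and Ifna4 had 1 UMI each, both in wounded library 2.

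None of 6 receptor genes was called in whole libraries. The most abundant of them was Ifngr1, with 85.2 and 96.7 CPM un-wounded and 120.4, 134 and 97.5 CPM wounded (0.39 ± 0.24 (adjusted p = 0.342)). The kinase Jak1 was not called either, with 66.4 and 92.8 CPM un-wounded and 92.6, 131 and 96.8 CPM wounded (0.46 ± 0.29 (adjusted p = 0.348)). Of 13 tested sensing genes none was called. Their most abundant, Ifi204, a sensor of DNA, had 1.81 and 13.9 CPM un-wounded and 57, 80.3 and 68.3 CPM wounded (3.19 ± 0.83 (adjusted p = 0.0967)). None of 13 interferon gamma-responsive genes and none of 8 negative regulators passed either. Their most abundant genes were the GTPase Gbp2, with 12.5 and 23.7 CPM un-wounded and 32.8, 56.7 and 42 CPM wounded (1.33 ± 0.398 (adjusted p = 0.118)), and Socs3, with 618 and 389.8 CPM un-wounded and 443, 401 and 327 CPM wounded (-0.37 ± 0.31 (adjusted p = 0.483)), whose groups overlapped. Of 38 other interferon-stimulated genes tested in whole libraries 3 rose, against 0.626% of all genes. Lgals3bp had 6.82 and 16 CPM un-wounded and 93.6, 86 and 89.5 CPM wounded (3.02 ± 0.403 (adjusted p = 0.0466)), Phf11d 5.46 and 6.7 CPM un-wounded and 41, 28.8 and 34.1 CPM wounded (2.53 ± 0.27 (adjusted p = 0.0422)) and Ifit3b, the neighbour of Ifit3, 0.508 and 0.678 CPM un-wounded and 8.94, 6.65 and 6.71 CPM wounded (3.66 ± 0.35 (adjusted p = 0.0422)). The median change of these 38 genes was 1.34.

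In fibroblasts, where 5.59% of all genes were called higher, 5 of 37 other interferon-stimulated genes rose, among them Lgals3bp with 52.3 and 33.8 CPM un-wounded and 166, 127 and 129 CPM wounded (1.83 ± 0.25 (adjusted p = 0.00355)), Ifi203 with 12 and 21.4 CPM un-wounded and 55, 81.2 and 54.2 CPM wounded (1.95 ± 0.32 (adjusted p = 0.00767)) and Phf11d with 21.4 and 12.6 CPM un-wounded and 56.6, 36.4 and 44.7 CPM wounded (1.6 ± 0.29 (adjusted p = 0.0122)). Of 12 sensing genes 2 rose there, Ifi204 with 15.9 and 33.3 CPM un-wounded and 109, 102 and 74 CPM wounded (1.96 ± 0.32 (adjusted p = 0.00822)) and Tmem173, the adaptor STING, with 6.86 and 12.8 CPM un-wounded and 27.7, 23.2 and 32.2 CPM wounded (1.49 ± 0.31 (adjusted p = 0.0226)). Of 11 interferon gamma-responsive genes Gbp3 rose, with 9.86 and 6.02 CPM un-wounded and 26.4, 20.2 and 20.4 CPM wounded (1.69 ± 0.27 (adjusted p = 0.00745)), and so did Nos2, with 0 and 0.0692 CPM un-wounded and 8.5, 1.35 and 9.55 CPM wounded (adjusted p = 0.0222). Tnfaip3 was the called gene of 8 negative regulators, with 54.4 and 118 CPM un-wounded and 214, 275 and 213 CPM wounded (1.51 ± 0.35 (adjusted p = 0.0328)). None of 5 receptors passed in fibroblasts.

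Ifitm1, a relative of Ifitm3 outside the member list, rose in several classes. In basal keratinocytes it had 0.861 and 1.24 CPM un-wounded and 9.95, 17 and 19.6 CPM wounded (3.97 ± 0.52 (adjusted p = 2.4e-06)), in spinous keratinocytes 0.943 and 0.704 CPM un-wounded and 11.9, 41 and 18.5 CPM wounded (4.62 ± 0.61 (adjusted p = 0.000939)) and in keratinocytes of unresolved layer 0.906 and 1.48 CPM un-wounded and 7.04, 34.9 and 19.6 CPM wounded (4.15 ± 0.71 (adjusted p = 0.0316)). In hair follicle keratinocytes it had 1.69 and 2.02 CPM un-wounded and 20.3, 24 and 19 CPM wounded (3.48 ± 0.601 (adjusted p = 0.0297)). The effect on Ifitm1 was larger in basal keratinocytes than in fibroblasts, by -2.79 on the log2 scale as fibroblasts minus basal keratinocytes (adjusted p = 6.5e-05). Gbp2 also rose in basal keratinocytes, with 9.005 and 6.33 CPM un-wounded and 15.8, 11.3 and 37.5 CPM wounded (1.78 ± 0.39 (adjusted p = 0.00548)), and its effect was larger there than in fibroblasts, by -1.68 ± 0.34 (adjusted p = 0.00307) in the same direction. Slfn2 rose in basal keratinocytes, with 0.705 and 1.08 CPM un-wounded and 5.36, 11.3 and 8.51 CPM wounded (3.16 ± 0.61 (adjusted p = 0.00119)), and in spinous keratinocytes, with 0.566 and 0.704 CPM un-wounded and 4.77, 15.8 and 10.9 CPM wounded (3.76 ± 0.73 (adjusted p = 0.0181)). Ly6e rose in hair follicle keratinocytes, with 64.4 and 68.5 CPM un-wounded and 221, 190.4 and 289.9 CPM wounded (1.96 ± 0.31 (adjusted p = 0.0202)). In all these keratinocyte classes and in fibroblasts, white blood cell markers were also higher in every wounded library, as given above. Wounded dendritic cells held far more Ifitm1, as given below. The part of white blood cell RNA in the results of Ifitm1, Gbp2, Slfn2 and Ly6e was not tested.

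In dendritic cells 5 of 34 other interferon-stimulated genes rose, against 2.22% of all genes. Ifitm1 had 0 and 18.3 CPM un-wounded and 1464, 2655 and 3357 CPM wounded (7.49 ± 0.72 (adjusted p = 0.00146)), Ifitm2 651 and 495 CPM un-wounded and 2050.2, 2066 and 2110.2 CPM wounded (2.01 ± 0.29 (adjusted p = 0.00874)) and Samhd1, which degrades nucleotides, 33.8 and 38 CPM un-wounded and 131, 124 and 123 CPM wounded (1.84 ± 0.29 (adjusted p = 0.0118)). Together with the member Ifitm3, 3 genes of the Ifitm family were thus called in these cells. Ifngr1, a chain of the interferon gamma receptor, rose with 50.8 and 62.9 CPM un-wounded and 194, 172 and 158 CPM wounded (1.63 ± 0.28 (adjusted p = 0.0161)), and Ifi204 with 16.9 and 6.55 CPM un-wounded and 34, 38.3 and 39.2 CPM wounded (2.24 ± 0.48 (adjusted p = 0.0354)). In pericytes or smooth muscle cells, where 8.07% of all genes were called higher and 8.44% lower, 7 of 16 other interferon-stimulated genes rose and 1 fell. Ly6e had 16.3 and 38.2 CPM un-wounded and 353, 227 and 283 CPM wounded (3.44 ± 0.39 (adjusted p = 0.00222)), Lgals3bp 16.3 and 12.7 CPM un-wounded and 253, 170.3 and 195 CPM wounded (3.81 ± 0.39 (adjusted p = 0.00157)), and Lgals3 fell, with 646 and 274 CPM un-wounded and 178, 117 and 147 CPM wounded (-1.64 ± 0.34 (adjusted p = 0.0148)). Irf8 had no un-wounded UMI there and 34.9, 49.7 and 41.5 CPM wounded (adjusted p = 0.0145). Ifi204 had 1 un-wounded UMI and 98.4, 85.1 and 58.4 CPM wounded (adjusted p = 0.00651), and Tnfaip3 rose, with 48.9 and 82.8 CPM un-wounded and 171, 234 and 216 CPM wounded (1.65 ± 0.35 (adjusted p = 0.0155)).

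In the model of lymphocytes minus fibroblasts, 0.123% of all genes had a larger effect in lymphocytes and 0.864% in fibroblasts. Of 35 other interferon-stimulated genes 2 were of the first kind and 2 of the second, as was 1 of 8 negative regulators, Tnfaip3. Irf8 (2.36 ± 0.48 (adjusted p = 0.0442)), Ifitm1 (3.54 ± 0.73 (adjusted p = 0.0489)) and Psmb9 (1.63 ± 0.29 (adjusted p = 0.0255)) had a larger effect in lymphocytes. Lgals3bp (-1.96 ± 0.297 (adjusted p = 0.0134)), Slfn2 (-1.87 ± 0.38 (adjusted p = 0.0443)) and Tnfaip3 (-1.73 ± 0.34 (adjusted p = 0.0404)) had a larger effect in fibroblasts.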

How the data were processed

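RNA was measured in 2 un-wounded and 3 wounded libraries. The authors deposited untransformed UMI counts for each gene in each barcode, and the submitters' processing notes name Cell Ranger 1.3.1 and mm10. The annotation behind the counts is not given in the sources used here. Cells with fewer than 200 genes or over 10% mitochondrial UMIs were dropped. Scrublet's own threshold called 0 to 22 cells per library, so the highest doublet scores were removed at 0.8% per 1000 barcodes. Clustering used 2000 variable genes without members or pathway genes, 30 principal components, 15 neighbours and Leiden resolution 1.0 (Scanpy 1.11.5, leidenalg 0.10.2), giving 32 clusters. A cluster took the name of the marker list with the highest score when 3 markers reached 10 CPM and the next list scored at least 0.5 lower. After the scores were seen, the erythroid list was not used, vascular and lymphatic clusters were pooled as endothelial cells, and close keratinocyte scores became keratinocytes of unresolved layer.

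UMIs summed per library and class went into the quasi-likelihood F-test of edgeR 4.0.16 (R 4.3.3) after filterByExpr and TMM scaling, with Benjamini-Hochberg adjustment over all genes tested. Every adjusted p in the text is from this test unless another is named. Printed CPM are plain, while log2 fold changes carry TMM scaling. Each SE is the absolute log2 fold change over the square root of the F statistic, and is unstable for changes near 0. Total kept UMIs were 31519032 and 38359460 un-wounded and 54392752, 31291153 and 39774223 wounded. Intervals of shares are exact Clopper-Pearson 95% intervals and the limit for a count of 0 is 3 counts, both covering counting error only. Values in every library are given for members with a mean of at least 20 CPM in the higher group and for members called. Of each pathway list, called genes are named up to the 3 most abundant, and the most abundant gene where none is called. Counts over the signalling list are not reported here. The members and lists were chosen with earlier results of these data known. Alternatives were DESeq2 1.42.0, other filters and clusterings, the replicate number as a block and leaving out each library. Gene positions are from GENCODE vM21. The scripts were tested on simulated data. Other tools were Python 3.11.15, NumPy 2.4.6, SciPy 1.17.1, pandas 2.3.3, scikit-learn 1.9.0, limma 3.58.1 and matplotlib 3.10.9.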

Additional observations from a re-analysis of the deposited data

Results flagged for a closer look

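For 4 members the effect of the wound differed between fibroblasts and basal keratinocytes in the test of the difference itself. The log2 difference, fibroblasts minus basal keratinocytes, was 4.00 for Oas1a, 3.47 for Ifi27l2a, 1.39 for Oasl2 and 1.20 for Bst2. Wounded library 2 held 26 basal keratinocytes, so Oas1a, at 0 in 2 of the 3 wounded basal sums, rests on few UMIs in that class. Without the fibroblast clusters led by Cxcl13 and Cxcl5 these differences were 1.75, 1.71, 0.49 and 0.36, and that of Ifi27l2a alone passed the threshold.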

How the results depend on the processing

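Over 49 pairs of a member and a comparison in which it was called, 746 alternative fits gave 597 calls in the same direction, 149 fits past the threshold no longer and 0 reversals, and the gene was not tested in 12 further fits. The cause of each change below was not tested. Shares of all genes called are not given for the counts below, which therefore do not compare members with other genes. In whole libraries (8 calls) DESeq2 gave 23, no filter on low counts 18, doublets kept 5, and dropping the 2 highest cells per gene 3. In fibroblasts (16) leaving out the clusters over 3 times more frequent in wounded libraries gave 2. Basal keratinocytes (3) had 1 with DESeq2 and 1 without the 2 highest cells. Keratinocytes of unresolved layer (1) had 5 with DESeq2, 8 with no filter, 4 with doublets kept, 2 with a mitochondrial limit of 5%, and 0 without the 2 highest cells or without cells with white blood cell UMIs. Spinous keratinocytes (1) had 0 with no filter, 3 with doublets kept, with the 5% limit, with Leiden resolution 2.0 or with no score margin, and 2 without cells with white blood cell UMIs. Dendritic cells (8) had 19 with no filter, 4 at Leiden resolution 2.0 and 14 without the 2 highest cells. Lymphocytes (0) had 3 with DESeq2, 10 with no filter, 1 without the 2 highest cells and 1 in the cluster led by Gzmc, Gzma and Xcl1 only. Pericytes or smooth muscle cells (6) had 10 with no filter and 3 without the 2 highest cells. Hair follicle keratinocytes (1) had 2 with DESeq2, 3 with no filter and 0 without the 2 highest cells, and sebocytes (0) had 1 with no filter. For fibroblasts minus basal keratinocytes (4) DESeq2 gave 2, and leaving out the wound-rich clusters 1. For lymphocytes minus fibroblasts (0) DESeq2 gave 1, no filter 3, members among the clustering genes 1, no 2 highest cells 2 and the Gzmc-led cluster 2. The sums without wound-rich clusters and of the Gzmc-led cluster were chosen after seeing the data.

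The replicate number as a block gave 0 calls in whole libraries, 5 in basal keratinocytes, 3 in keratinocytes of unresolved layer, 2 in spinous keratinocytes, 18 in dendritic cells and 4 in lymphocytes. The groups share 2 numbers, to which the labels give no meaning. Deviations of same-numbered libraries from their group means correlated at 0.466 and 0.435. With 2 un-wounded libraries their deviations are exact opposites, so differently numbered ones give the same values with the sign turned.

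Leaving out 1 library at a time gave 0 to 22 calls in whole libraries, 7 to 16 in fibroblasts, 2 to 3 in basal keratinocytes, 0 to 5 in keratinocytes of unresolved layer, 0 to 2 in spinous keratinocytes, 0 to 14 in dendritic cells, 0 to 2 in lymphocytes, 4 to 7 in pericytes or smooth muscle cells, 0 to 2 in hair follicle keratinocytes and 0 to 0 in sebocytes. It gave 2 to 5 for fibroblasts minus basal keratinocytes and 0 to 3 for lymphocytes minus fibroblasts. The difference in the share of cells with at least 2 canonical members, in percentage points, was 16.4 to 22.4 in whole libraries, 9.65 to 12.1 in fibroblasts, -1.13 to 0.132 in basal keratinocytes, 2.70 to 3.77 in keratinocytes of unresolved layer, 1.02 to 1.85 in spinous keratinocytes, 17.2 to 24.04 in dendritic cells, 9.43 to 14.1 in lymphocytes, 6.80 to 19.1 in pericytes or smooth muscle cells, 4.05 to 4.93 in hair follicle keratinocytes and 0.0354 to 2.98 in sebocytes. The within-class part of the summed difference was 37.0% to 55.9%.

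The basal difference in shares of -0.441 points turned to 5.49 with at least 1 member, 0.0257 with at least 3, 10.1 with no thinning and 2.43 with all members counted. With all members counted the pericyte difference was -0.588, and with at least 1 member that of sebocytes was -0.554. Without TMM the median of all genes was -0.238 in basal, -0.228 in unresolved, -0.166 in spinous and -0.139 in hair follicle keratinocytes, -0.201 in lymphocytes, 0.147 for fibroblasts minus basal keratinocytes and -0.108 for lymphocytes minus fibroblasts. With 2 un-wounded libraries and 17 to 40 cells in some class sums, a missing call of a low member does not show that it was unchanged.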
